A study of Mus musculus with 38 samples.

Results

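The genes described here are the protein-coding genes of mouse chromosomes 1 to 19 whose symbol is Zfp followed by a number from 500 to 999, as annotated in GENCODE vM21 on GRCm38. They number 202 of 20807 protein-coding genes on these chromosomes. The rule used only names, and no measured value chose a gene. Of the 202, 138 were called clustered because the next Zfp gene of any number lay within 200 kb, and 64 were called isolated. Nearest to this limit were Zfp593 and Zfp683 on the clustered side, each 184.3 kb from the next Zfp gene, and Zfp969 on the isolated side, at 210.1 kb.

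The chromatin data were ChIP-seq calls of 5 histone marks, H3K4me3, H3K27ac, H3K4me1, H3K27me3 and H3K9me3, in ES-E14TG2a mouse embryonic stem cells (mESCs) at Timepoint 0h. Each mark had 3 IκBα-WT (WT) and 3 IκBα-KO (KO) libraries. The WT genotype is labelled IkappBalpha+/+ or, for H3K27ac and H3K4me1, IkappaBalpha+/+ with the treatment wildtype, and the KO genotype IkappBalpha-/- or IkappaBalpha-/- with the treatment knock-out. Both genotypes were grown on gelatin in serum with Leukemia Inhibitory Factor (LIF), and both had been through CRISPR: the WT clones carried non-targeting scrambled guides and the KO clones 2 guides at exon 1 of Nfkbia, the gene of IκBα. The study describes the 3 libraries of a genotype as independent clones of 1 line, so every SD below is the spread between clones and libraries. An SE of a log2 fold change comes from a fit that shares information over all regions or genes of a mark. The cells were bulk cultures, in which fewer cells with a mark and less mark per cell cannot be told apart.

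Most of these genes encode C2H2 zinc-finger proteins. A finger is a short loop held by a zinc ion between a pair of cysteines and a pair of histidines, and an array of fingers reads DNA. Many vertebrate family members also carry a KRAB box, which recruits Trim28 (KAP1) and, through it, the H3K9 methyltransferase Setdb1, and a large part of the KRAB zinc-finger proteins bind transposable elements. The genes lie in tandem clusters that grew by duplication, each with an array in its last exon, and in many cell types H3K9me3 and HP1 cover these arrays. H3K4me3 and H3K27ac mark active promoters, H3K4me1 enhancers and promoter flanks, H3K27me3 Polycomb-repressed genes and H3K9me3 heterochromatin.

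The coding sequences fitted the name. A C2H2 pattern (C, 2 to 4 residues, C, 12 residues, H, 3 to 5 residues, H) occurred at least once in 194 of the 202 and at least 5 times in 171 (84.7%, against 2.43% of all protein-coding genes), with a median of 10 and a maximum of 33. A strict KRAB box pattern was found in 122 of them (60.4%, against 1.39% of all genes), namely in 102 of the 138 clustered genes (73.9%) and in 20 of the 64 isolated genes (31.3%). Genes without this pattern can still hold a diverged KRAB box. Chromosome 7 held 51 of the genes, chromosome 17 held 25, chromosome 4 held 22, chromosome 8 held 16 and chromosome 2 held 15, and there were 44 clusters. The largest lay at chr17:21383748-22456689 with 13 of the genes among 18 Zfp genes.

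To show what the arrays look like and how alike they are, 3 neighbouring fingers are given from 4 genes that return below, as GRCm38 sequence of the coding strand with the codons of the cysteines and histidines in capitals. Zfp787 (chr7:6132798-6133049, minus strand) and Zfp629 (chr7:127611934-127612185, minus strand) both had less H3K9me3 in KO, as a lost 3′ end call in the former and as the lowest adjusted p for H3K9me3 reads in the latter, and their fingers matched at 80.2% of the bases. Zfp991 (chr4:147178891-147179142, plus strand) and Zfp992 (chr4:146466547-146466798, plus strand) belong to different clusters of chromosome 4 and matched at 251 of 252 bases.
Zfp787 fingers: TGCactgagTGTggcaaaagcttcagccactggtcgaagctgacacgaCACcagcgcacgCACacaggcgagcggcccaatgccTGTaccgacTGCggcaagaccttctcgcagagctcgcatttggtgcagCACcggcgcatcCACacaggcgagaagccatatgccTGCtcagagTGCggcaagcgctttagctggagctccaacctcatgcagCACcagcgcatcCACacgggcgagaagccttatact
Zfp629 fingers: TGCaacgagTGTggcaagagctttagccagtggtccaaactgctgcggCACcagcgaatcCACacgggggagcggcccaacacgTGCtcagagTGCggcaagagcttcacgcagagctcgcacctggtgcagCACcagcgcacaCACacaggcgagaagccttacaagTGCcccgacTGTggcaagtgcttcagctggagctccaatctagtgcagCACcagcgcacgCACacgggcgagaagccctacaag
Zfp991 fingers: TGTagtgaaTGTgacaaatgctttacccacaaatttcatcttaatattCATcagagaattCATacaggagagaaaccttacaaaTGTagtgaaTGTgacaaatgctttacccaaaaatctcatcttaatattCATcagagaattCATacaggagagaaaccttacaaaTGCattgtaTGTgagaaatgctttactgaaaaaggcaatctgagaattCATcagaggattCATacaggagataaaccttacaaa
Zfp992 fingers: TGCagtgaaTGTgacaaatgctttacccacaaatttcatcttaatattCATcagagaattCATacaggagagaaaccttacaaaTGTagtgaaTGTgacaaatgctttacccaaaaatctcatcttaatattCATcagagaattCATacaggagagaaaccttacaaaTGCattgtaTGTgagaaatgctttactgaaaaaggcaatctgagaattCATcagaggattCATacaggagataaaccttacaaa
Among the 14 genes of chromosome 4 with such a run of 3 fingers, the median identity over 91 pairs was 86.5%. In the study's methods, reads that map to several places were removed, so a read from such an array can be lost. As a measure of this, every 50-base word of a window, the length of the reads, was looked up in the whole genome. The share of words found once was 99.5% in the last 3000 bp of Zfp787 and 11.8% in those of Zfp991.

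Calls were read in 3 windows of each gene: the promoter (1000 bp on either side of the outermost annotated start), the gene body and the 3′ end (the last 3000 bp, which hold most finger arrays). The H3K4me3 lists held 21836 to 26806 calls per library and no read counts. The other lists held 22.9 to 28.3 M (1e6) ChIP reads in calls for H3K27ac, 34.7 to 36.0 M for H3K4me1, 8.91 to 10.9 M for H3K27me3 and 8.55 to 12.1 M for H3K9me3. The called sequence was also unequal between the genotypes. For H3K9me3 it was 201.7 to 207.3 Mb in the WT and 172.5 to 185.7 Mb in the KO libraries. It was lower in KO for H3K4me1 too, at 485.57 to 487.76 Mb in WT and 476.05 to 483.22 Mb in KO. For H3K27ac it was higher in KO (380.45 to 392.53 Mb in WT, 410.56 to 419.25 Mb in KO). H3K27me3 was also higher in KO (214.07 to 258.89 Mb in WT, 266.62 to 278.2 Mb in KO). For H3K4me3 the ranges overlapped, at 17.19 to 19.28 Mb in WT and 19.02 to 22.13 Mb in KO. Of 7 stem cell marker genes, 6 had promoter H3K4me3 and 6 H3K27ac in all 6 libraries, and 2 (Esrrb and Klf4) had H3K27me3 in all 6. The Esrrb window had H3K4me3 and H3K27ac in 0 libraries, and an internal start of this gene can lie outside it. Of 11 markers of endoderm, mesoderm, neural cells and fibroblasts, 11 had promoter H3K27me3 in all 6, 6 had H3K4me3 and 7 H3K27ac.

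H3K9me3 set these genes apart from the genome, most of all at the 3′ end. A call overlapped the 3′ end of 38.1%, 37.1% and 36.6% of the 202 genes in the WT libraries and of 33.7%, 29.7% and 36.1% in the KO libraries, while over all genes the means were 10.9% in WT and 9.99% in KO. All 6 libraries lay far above the genome, and the KO libraries lay below the WT libraries without overlap. The promoter was called less often, in 19.6% ± 0.756 (SD, n = 3) of the genes in WT and 18.5% ± 1.03 in KO, against 6.59% and 5.70% of all genes. In the gene body the shares were 50.3% ± 2.37 and 45.9% ± 4.70, against 32.4% and 30.2%. Within the called 3′ ends the H3K9me3 reads per kb were 80.1 ± 8.10 in WT and 82.8 ± 11.6 in KO, against 51.3 and 49.9 over all genes.

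The 3′ end calls covered 886, 886 and 854 bp per gene in WT and 741, 696 and 812 bp in KO. Each WT value was higher than each KO value, by 125 bp on average, where all genes differed by 8.61 bp (195 bp in WT and 186 bp in KO) with overlapping libraries. This difference moved with the amount called. When every H3K9me3 list was cut to the same number of top-ranked calls, the KO mean was 20.8 bp above the WT mean and the share of genes called was 0.825 percentage points higher in KO. Library means over these genes carry no p here, and 3 libraries against 3 cannot give an exact permutation p under 0.1.

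**Figure D1:**
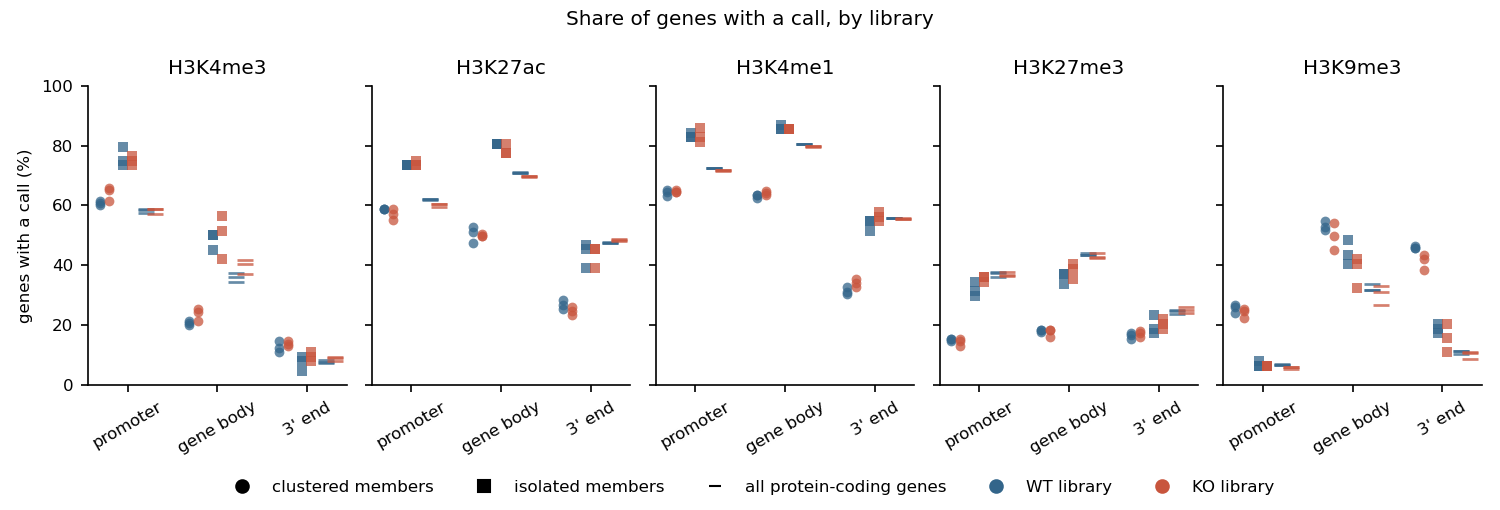
Share of genes with a call (%, y axis) in each library for the 5 marks (panels) at the promoter, gene body and 3′ end (x axis), with circles for the 138 clustered genes, squares for the 64 isolated genes, dashes for all protein-coding genes, blue for WT and red for KO. H3K9me3 at the 3′ end is found in 38.4 to 46.4% of clustered genes and in 10.9 to 20.3% of isolated genes, whereas promoter H3K27me3 is more frequent in isolated genes, at 29.7 to 35.9% against 13.0 to 15.2%.

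Clustered and isolated genes differed in all 5 marks. In WT, H3K9me3 was called at the 3′ end of 45.9% of clustered and 18.8% of isolated genes and at the promoter of 25.6% and 6.77%. H3K27me3 went the other way, at 15.0% of clustered and 31.8% of isolated promoters. H3K4me3 was called at 60.9% of clustered and 76.0% of isolated promoters, H3K27ac at 58.7% and 73.4%, and H3K4me1 at 64.3% and 83.3%. Genes are not replicates, so these gaps have no test. For H3K9me3 at the 3′ end the clustered share minus the isolated share was 27.1 ± 1.22 percentage points in WT and 25.7 ± 2.24 in KO, with overlapping libraries. For H3K4me3 the gap was -18.1, -13.3 and -14.1 in WT and -11.8, -11.3 and -9.06 in KO, smaller in each KO library than in each WT library. For H3K27ac it was -14.7 in each WT library and -16.3, -18.4 and -16.2 in KO, larger in each KO library.

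The KRAB box pattern divided the genes further. At the 3′ end, H3K9me3 was called in 49.0% (WT) and 46.4% (KO) of the 102 clustered genes with the pattern and in 48.3% and 38.3% of the 20 isolated genes with it. Without the pattern the shares were 37.0% and 26.9% in the 36 clustered genes and 5.30% in both genotypes in the 44 isolated genes. In WT the genes with a KRAB pattern were thus close to each other whether clustered or isolated, and isolated genes without it lay under the share of all genes. Promoter H3K27me3 followed the pattern in reverse, with 6.86% in both genotypes for clustered genes with it, 13.3% and 16.7% for isolated genes with it, 38.0% and 35.2% for clustered genes without it and 40.2% and 43.9% for isolated genes without it. H3K4me3 was called at 52.3% and 56.5% of promoters of clustered and at 55.0% of isolated genes with the pattern, and at 84.1 to 86.1% of promoters of genes without it. The number of fingers moved with H3K9me3 as well: the WT share at the 3′ end was 20.4% in the 31 genes with 0 to 4 C2H2 patterns, 27.8% in the 54 with 5 to 9, 48.7% in the 76 with 10 to 14 and 41.5% in the 41 with 15 or more.

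**Figure D2:**
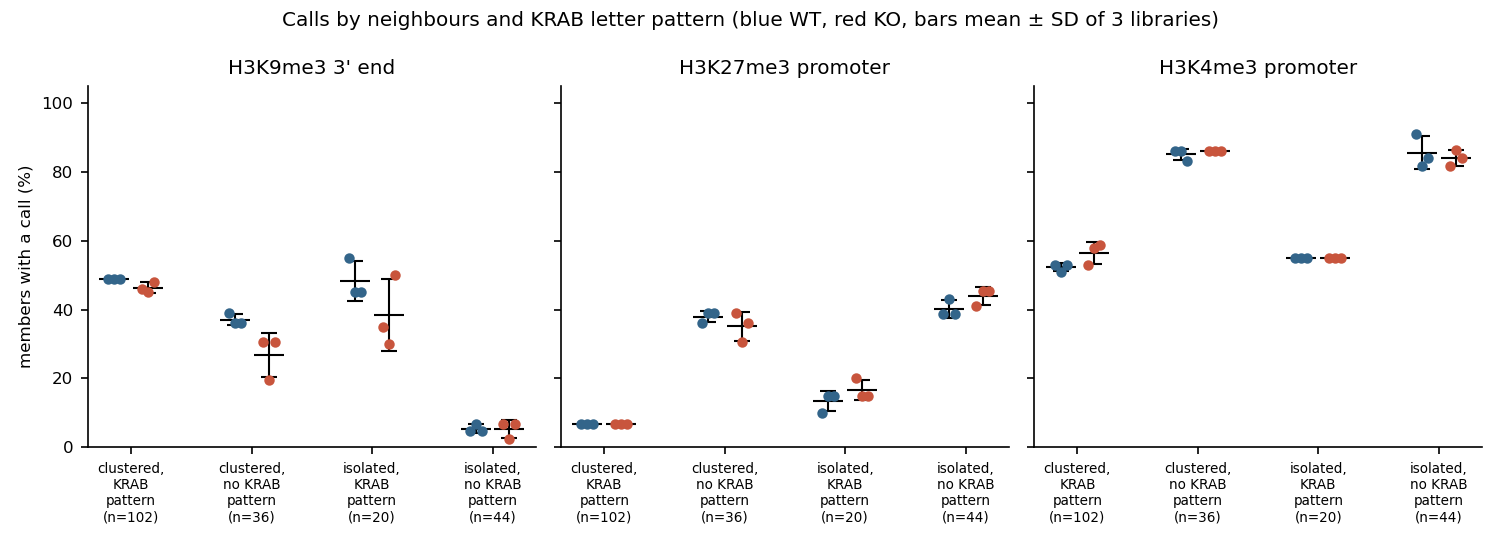
Share of genes with a call (%, y axis) for H3K9me3 at the 3′ end, H3K27me3 at the promoter and H3K4me3 at the promoter (panels) in genes grouped by cluster and KRAB pattern (x axis), with a point per library, blue for WT and red for KO, and the mean ± SD. Among isolated genes, H3K9me3 at the 3′ end is at 48.3% (WT) with and 5.30% without a KRAB pattern, and promoter H3K27me3 at 13.3% and 40.2%.

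Part of these patterns moved with how much of a window reads can reach. At least 90% of the words were unique in 142 of 202 promoters (85 of 138 clustered and 57 of 64 isolated) and in 143 of 202 3′ ends, and under 50% in 26 promoters and 26 3′ ends. Promoter H3K4me3 was called in 86.9% (WT) and 87.6% (KO) of the 142, in 27.5% and 36.3% of the 34 with 50 to 90% unique words and in 0% of the 26 with fewer. H3K9me3 ran in the other direction, at 26.1% ± 1.07 and 20.5% ± 4.22 of the 143 most unique 3′ ends, 59.6% and 58.6% of the 33 in between and 70.5% in both genotypes of the 26 least unique. A missing H3K4me3 call in a window of low uniqueness is therefore not a measurement of no mark. The 5 genes Zfp965 to Zfp969 of chromosome 2, with no unique word in promoter or 3′ end, had no call of any mark.

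Restricted to windows with at least 90% unique words, the clustered promoters were no longer below the isolated ones in the active marks. H3K4me3 was then called in 90.2% of the 85 clustered and 81.9% of the 57 isolated promoters in WT, H3K27ac in 87.1% and 78.9%, and H3K4me1 in 94.5% and 90.6%. The gaps of the repressive marks were smaller and kept their sign, with H3K27me3 at 24.3% and 35.7% and H3K9me3 at the 3′ end at 33.3% of 88 clustered and 14.5% of 55 isolated genes. In WT, genes with the KRAB pattern stayed below those without it in the active marks of unique windows, by less than over all windows, as 86.4% against 87.3% for H3K4me3 (88.4% against 86.8% in KO), 80.8% against 86.4% for H3K27ac and 90.4% against 95.2% for H3K4me1. There H3K27me3 was at 14.6% and 41.2%, and H3K9me3 at the 3′ end at 35.3% and 17.8% with and without the pattern.

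**Figure D3:**
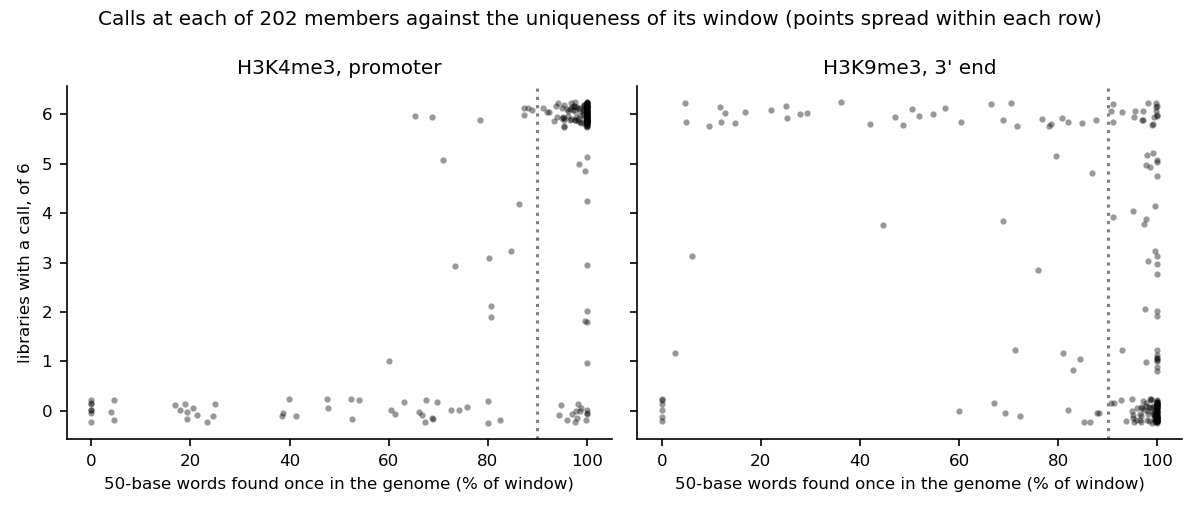
Number of libraries with a call (0 to 6, y axis) against the share of unique 50-base words (%, x axis) of each gene's window, for promoter H3K4me3 and for H3K9me3 at the 3′ end (panels), with 1 point per gene and a dotted line at 90%. Genes under 50% have no promoter H3K4me3 call, and many of them have H3K9me3 at the 3′ end in all 6 libraries.

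The marks were also read together, taking a mark as present in a genotype when 2 or 3 of its libraries called it. Promoter H3K4me3 was present at 131 genes in WT and 137 in KO, with H3K27ac at 119 and 118 of them and with H3K27me3 at 33 and 31. In WT the latter pair, the bivalent state of developmental genes, made up 16.3% of these genes against 24.6% of all genes. Promoter H3K4me3 together with H3K9me3 at the 3′ end of the same gene occurred at 35 genes in WT and 32 in KO, 17.3% in WT against 5.28% of all genes. H3K9me3 at the 3′ end without promoter H3K4me3 was found at 39 and 34 genes, and neither a promoter call of any mark nor H3K9me3 at the 3′ end at 15 and 14.

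CG content of the promoter went with H3K4me3. RefSeq promoters (250 bases before to 50 after the start, GRCm38) were matched for 167 of the genes and held a median of 12 CG pairs, against 15 over 15686 genes. The median was 16.5 in the 104 with H3K4me3 in 6 libraries, 6 in the 49 with it in 0 libraries and 19 in the 25 with H3K27me3 in 6 libraries. Among promoters with at least 90% unique words the contrast was narrower, at 17 in the 97 with H3K4me3 in 6 libraries and 8.5 in the 12 with it in 0. Genes with the KRAB pattern had a median of 10 and those without it 19. At least 10 CG pairs were found in 59.9% of the matched genes and 60.2% of all promoters of this length. The promoters of 4 genes with genotype differences described next are shown with CG in capitals, from Zfp948 (chr17:21566728-21567027, plus strand, 10 CG), Zfp977 (chr7:42592496-42592795, minus strand, 6 CG), Zfp513 (chr5:31202254-31202553, minus strand, 19 CG) and Zfp787 (chr7:6155916-6156215, minus strand, 27 CG).
Zfp948 promoter: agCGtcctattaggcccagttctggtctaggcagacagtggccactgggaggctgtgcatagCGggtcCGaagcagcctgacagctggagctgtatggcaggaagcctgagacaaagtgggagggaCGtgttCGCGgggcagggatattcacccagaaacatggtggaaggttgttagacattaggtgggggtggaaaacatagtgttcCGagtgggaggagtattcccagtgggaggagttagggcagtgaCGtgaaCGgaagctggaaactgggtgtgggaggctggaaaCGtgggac
Zfp977 promoter: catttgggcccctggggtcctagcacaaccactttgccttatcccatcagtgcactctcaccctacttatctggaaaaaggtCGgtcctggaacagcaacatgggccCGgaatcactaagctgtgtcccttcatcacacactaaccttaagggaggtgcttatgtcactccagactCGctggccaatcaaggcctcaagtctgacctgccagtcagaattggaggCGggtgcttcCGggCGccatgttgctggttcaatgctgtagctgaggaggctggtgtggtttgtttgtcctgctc
Zfp513 promoter: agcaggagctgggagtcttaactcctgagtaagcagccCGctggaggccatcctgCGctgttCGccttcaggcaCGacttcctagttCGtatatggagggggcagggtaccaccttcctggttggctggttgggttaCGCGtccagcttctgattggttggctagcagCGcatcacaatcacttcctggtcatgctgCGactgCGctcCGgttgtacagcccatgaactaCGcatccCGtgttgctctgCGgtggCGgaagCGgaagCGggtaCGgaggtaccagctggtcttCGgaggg
Zfp787 promoter: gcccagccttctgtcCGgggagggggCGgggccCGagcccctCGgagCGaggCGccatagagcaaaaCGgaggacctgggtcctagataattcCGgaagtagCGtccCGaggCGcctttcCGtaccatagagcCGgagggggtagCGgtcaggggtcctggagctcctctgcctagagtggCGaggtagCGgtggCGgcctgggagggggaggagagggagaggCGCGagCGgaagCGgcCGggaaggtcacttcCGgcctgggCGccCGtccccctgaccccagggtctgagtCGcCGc

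Some genes had a promoter call in all 3 libraries of one genotype and in none of the other. For H3K4me3 these were 2 genes called only in KO, where 0.245% of all genes had this pattern, and none called only in WT, where 0.269% of all genes did. Zfp948 (ENSMUSG00000067931, chr17:21567008-21588699, 15 C2H2 patterns and a KRAB pattern, in the largest cluster) had 0 bp of H3K4me3 in each WT library against 486, 654 and 563 bp in KO, with H3K27ac and H3K4me1 in all 6. Zfp977 (ENSMUSG00000092335, chr7:42579783-42592547) had 0 bp in each WT library against 446, 361 and 455 bp in KO, while H3K9me3 covered its promoter, body and 3′ end in full in all 6 libraries. Both genes were picked by this pattern, so the gap between their groups follows from the choice. The promoter of Zfp977, with 73.3% unique words, is the less reachable of the pair.

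For H3K27ac, Zfp709 was called only in WT, with 1419, 1000 and 1619 bp against 0 bp in each KO library, and Zfp663 only in KO, with 1072, 1072 and 1272 bp. The background is 1.03% of all genes for WT only and 0.303% for KO only. Both genes lay in 1 Mb windows where the input reads per kb also differed between the genotypes by more than 0.25 on the log2 scale, a shift that touched 16 of the 202 genes, 14 of them on chromosome 8, where the input was mostly higher in KO (median log2 ratio 0.513 over the 16). Their part in the H3K27ac difference was not tested. For H3K4me1 no gene was called in 1 genotype only (0.317% of all genes in WT only, 0.13% in KO only). For H3K27me3, Zfp507 was called only in KO with 3, 3 and 803 bp, so that 2 of its 3 calls only touched the window, and no gene only in WT (0.457% and 0.62% of all genes).

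For H3K9me3, Zfp775 was called at the promoter only in WT, with 738, 538 and 738 bp (0.389% of all genes had a promoter call in WT only and 0.0865% in KO only). At the 3′ end Zfp787 was the single gene called in 1 genotype only (0.446% of all genes in WT only, 0.238% in KO only). Zfp787 (ENSMUSG00000046792, chr7:6131491-6155997, minus strand) has 7 C2H2 patterns and no KRAB pattern. H3K9me3 covered 3000 bp of its 3′ end in each WT library and 0 bp in each KO library, and in the gene body it covered 4110, 3510 and 3510 bp in WT and 0 bp in KO. H3K4me1 took the same 3′ end in KO only, with 2710, 2910 and 2510 bp against 0 bp in WT. The finger array shown above lies in this window, and there H3K9me3 was called in the WT libraries alone and H3K4me1 in the KO libraries alone. H3K27me3 covered the whole 3′ end in all 6 libraries, and H3K4me3 covered 1610, 1657 and 1741 bp of the promoter in WT and 1875, 1544 and 1711 bp in KO.

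**Figure D4:**
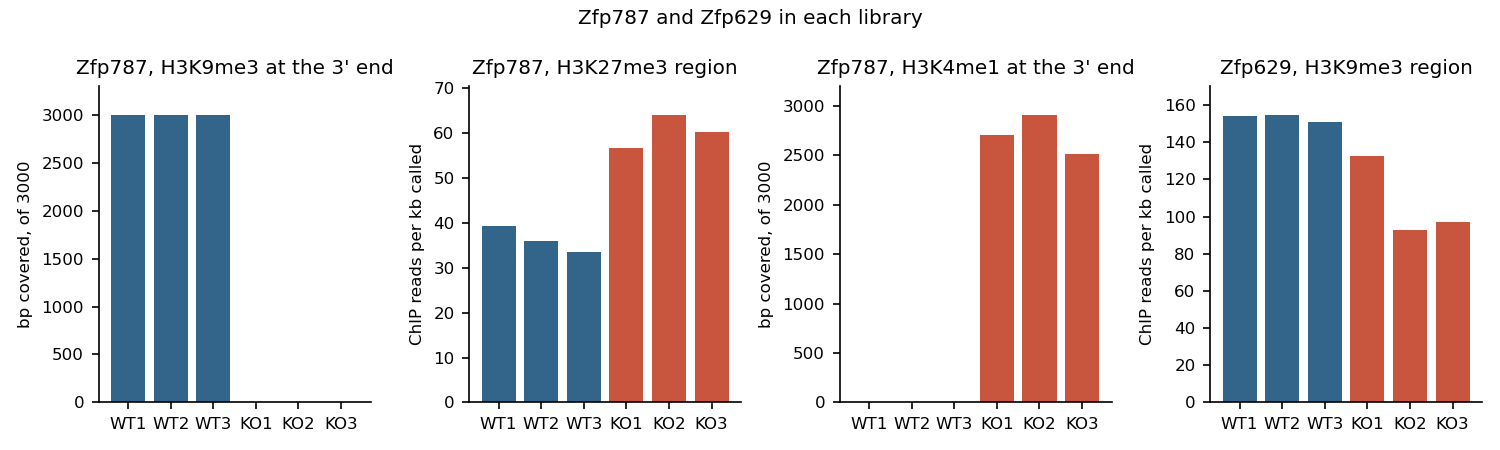
Values per library (bars from 0, blue WT and red KO) of Zfp787 for H3K9me3 at the 3′ end (covered bp), H3K27me3 over the gene's region (reads per kb) and H3K4me1 at the 3′ end (covered bp), and of Zfp629 for H3K9me3 over the gene's region (reads per kb). At Zfp787, H3K9me3 covers 3000 bp in every WT and 0 bp in every KO library, while H3K27me3 is at 33.6 to 39.3 reads per kb in WT and 56.6 to 64.1 in KO.

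Levels were compared where all 6 libraries had a call, with the fit and the Benjamini-Hochberg adjustment over all genes or regions of the mark. For H3K9me3 (edgeR quasi-likelihood test on reads per merged region) 84 of the 202 genes could be tested, with a median log2 fold change of -0.02 against -0.00 over all genes tested. At an adjusted p under 0.05, 4 were lower in KO (4.76%, against 0.811% of all genes tested) and 1 was higher (1.19%, against 0.243%). Zfp629 (ENSMUSG00000045639, chr7:127607031-127615797, 19 C2H2 patterns) had 154, 155 and 151 reads per kb in WT and 133, 93.1 and 97 in KO, with a log2 fold change of -0.52 ± 0.07 (SE, adjusted p = 0.00931). No KO library reached a WT library there, but the call was lost without WT replicate 2 (adjusted p = 0.0513) or WT replicate 3 (0.0544). Zfp553 and Zfp771, which share 1 region of 12800 bp, had 131, 87.3 and 92.7 reads per kb in WT and 85.2, 61.6 and 67.0 in KO (log2 fold change -0.52 ± 0.09, adjusted p = 0.0314).

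The remaining H3K9me3 calls lay in repetitive sequence of chromosome 4. Zfp990 was lower in KO by a log2 fold change of -0.19 ± 0.03 (adjusted p = 0.0246), with 117, 96.5 and 94.0 reads per kb in WT and 102, 82.5 and 83.2 in KO, which overlap before scaling to library size. Zfp600 was higher in KO by 0.28 ± 0.04 (adjusted p = 0.0149), with 202, 180 and 174 in WT and 272, 197 and 205 in KO. Reads of Zfp600 are uncertain, since 12% of the words in its 3′ end are unique and near-identical copies share the rest. These 5 calls depended on single libraries: the count was 1 without WT replicate 1, 3 without WT replicate 2, 0 without WT replicate 3, and it was 1 when KO replicate 1 and 2 when KO replicate 3 was left out.

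H3K27me3 could be tested at 53 of the genes, of which 6 were higher in KO (11.3%, against 2.63% of all genes tested) and 0 lower (1.7% of all genes tested) by the edgeR test. DESeq2 gave 5 changed genes, where over all 18809 regions 313 were higher and 181 lower. The median log2 fold change was 0.06 against 0.00 over all genes tested. Zfp787 was among the higher genes, in a region of 14400 bp that overlaps 4510 bp of the gene, with 39.3, 35.9 and 33.6 reads per kb in WT and 56.6, 64.1 and 60.4 in KO (log2 fold change 0.73 ± 0.08, adjusted p = 0.000112). Zfp629 rose as well, from 38.0, 30.2 and 33.2 to 44.5, 44.5 and 42.4 reads per kb (0.38 ± 0.09, adjusted p = 0.0276). Both genes thus had more H3K27me3 and less H3K9me3 in KO. The other 4, Zfp964, Zfp821, Zfp612 and Zfp663, lay in windows with shifted input, and without such windows 2 genes of 46 were higher. In the H3K27me3 lists the input log2 ratios of these 4 were 0.455, 0.525, 0.555 and 0.372. The windows left out also held Zfp709, Zfp961 and Zfp827, with ratios there of only 0.050, 0.050 and 0.057.

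For H3K4me3, limma on the log2 fold enrichment of the peaks tested 126 promoters, of which 11 rose (8.73%, against 12.2% of all genes tested) and 4 fell in KO (3.17%, against 6.37%). Both shares lay under the background. The median log2 fold change was 0.13 against 0.07 over all genes tested. When the values of each library were centred on their median, 11 rose and 6 fell. Over all genes tested the split was then 1239 higher and 1267 lower, against 1382 and 721 without centring. The count of 15 went to 8 without WT replicate 1, 7 without KO replicate 1, 7 without KO replicate 2 and 9 without KO replicate 3.

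Among the H3K4me3 genes that rose were Zfp707, from a fold enrichment of 4.48, 4.37 and 5.94 in WT to 10.7, 10.4 and 10.2 in KO (log2 fold change 1.09 ± 0.23, limma adjusted p = 0.00259), and Zfp691, from 7.77, 8.24 and 9.01 to 13.0, 15.1 and 17.7 (0.86 ± 0.21, adjusted p = 0.00634). The groups did not overlap in either gene. Zfp526 was at 8.05, 3.07 and 3.44 in WT and 9.57, 7.88 and 11.8 in KO (1.13 ± 0.29, adjusted p = 0.00981), its WT replicate 1 overlapped the KO range, and the call was lost without WT replicate 2 (adjusted p = 0.0722) or WT replicate 3 (0.0669). Zfp809, a KRAB protein that silences murine leukaemia proviruses in embryonic cells, rose from 10.7, 9.17 and 10.4 to 18.3, 13.6 and 17.4 (0.70 ± 0.20, adjusted p = 0.0182). Zfp819, a KRAB protein of pluripotent cells linked to retroelement control, rose from 5.26, 5.65 and 2.70 to 7.13, 9.25 and 6.93 (0.84 ± 0.27, adjusted p = 0.0331), a call lost when the libraries were centred (0.0761) and without WT replicate 3 (0.179), KO replicate 1 (0.0607) or KO replicate 2 (0.141). The others were Zfp867, Zfp511, Zfp689, Zfp868, Zfp580 and Zfp592, with log2 fold changes of 0.66 to 0.77, of which Zfp868 lay in a window with shifted input.

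Zfp513 (ENSMUSG00000043059, chr5:31198981-31202303, 8 C2H2 patterns, no KRAB pattern) fell most, from a fold enrichment of 18.6, 14.3 and 17.8 in WT to 9.75, 5.84 and 8.47 in KO (log2 fold change -1.10 ± 0.22, limma adjusted p = 0.00195). At its 3′ end, the 2322 bp of the gene past the promoter window, H3K4me3 went the other way, with 0 bp in each WT library and 277, 564 and 1102 bp in KO. The highest KO fold enrichment at the promoter lay well under the lowest WT value, and the highest adjusted p over 11 alternative settings was 0.0175. Zfp775, the gene with promoter H3K9me3 only in WT, was also lower in H3K4me3 in KO, at 3.81, 3.71 and 3.01 against 6.55, 4.98 and 6.43 (-0.77, adjusted p = 0.0306). Zfp612 and Zfp777 were lower by -0.72 and -0.62. Zfp612 lay in a window with shifted input, higher in KO by a log2 ratio of 0.478 in the H3K4me1 lists. The part of this input in its lower fold enrichment over input was not tested. The calls of Zfp775, Zfp612 and Zfp777 were lost under 5 or 6 of their alternatives.

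H3K27ac was tested at 124 of the genes in 121 regions, and 16 were higher in KO (12.9%, against 18.5% of all genes tested) and 5 lower (4.03%, against 3.64%). The median log2 fold change was 0.02 for these genes and for all genes tested. Without the trimmed mean of M-values (TMM) scaling, 12 were higher and 8 lower, while over all regions the split went from 1968 higher and 1097 lower to 1193 and 2228. Of the 16, 11 had a log2 fold change under 0.25, often in regions far wider than the gene. In windows with shifted input lay 4 of the 16 higher and 2 of the 5 lower genes. Without such windows 12 of 113 were higher and 3 lower. Zfp870, in a cluster of chromosome 17, had 81.5, 81.2 and 81.5 reads per kb in WT and 112, 116 and 100 in KO (log2 fold change 0.41 ± 0.04, edgeR adjusted p = 5.42e-05), with no overlap. On the lower side Zfp760, also on chromosome 17, was at 100, 110 and 116 in WT and 72.9, 85.2 and 82.3 in KO (-0.45 ± 0.11, adjusted p = 0.0183). Zfp608, an isolated gene without a KRAB pattern, was at 53.0, 57.4 and 56.4 in WT and 42.6, 44.3 and 38.1 in KO (-0.42 ± 0.04, adjusted p = 3.52e-05), a call kept in all 10 of its alternatives. That of Zfp760 was lost without WT replicate 2, WT replicate 3, KO replicate 1 or KO replicate 2, with edgeR adjusted p-values of 0.0521 to 0.0770.

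H3K4me1 was tested at 145 of the genes, and 17 were higher in KO (11.7%, against 9.59% of all genes tested) and 4 lower (2.76%, against 3.23%), with medians of 0.05 and 0.01. Without TMM 14 were higher and 7 lower, and over all regions the split went from 1784 higher and 732 lower to 1307 and 1179. Of the 17, 10 lay in windows with shifted input, among them Zfp964, Zfp930, Zfp961 and Zfp791 with the 4 largest changes (0.58, 0.48, 0.46 and 0.40), and without such windows 7 of 130 were higher and 3 lower. Outside them Zfp664 went from 66.3, 67.9 and 66.7 to 78.7, 79.0 and 80.7 reads per kb (0.28 ± 0.04, edgeR adjusted p = 0.000569). Zfp608 was lower in H3K4me1 too, at 73.1, 76.1 and 74.7 against 64.6, 65.6 and 61.5 (-0.19 ± 0.03, adjusted p = 0.0019). Zfp839, the 1 gene of chromosome 12, was lower in H3K4me1 by -0.66 and in H3K27ac by -0.63, and its input was lower in KO by a log2 ratio of -0.983.

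**Figure D5:**
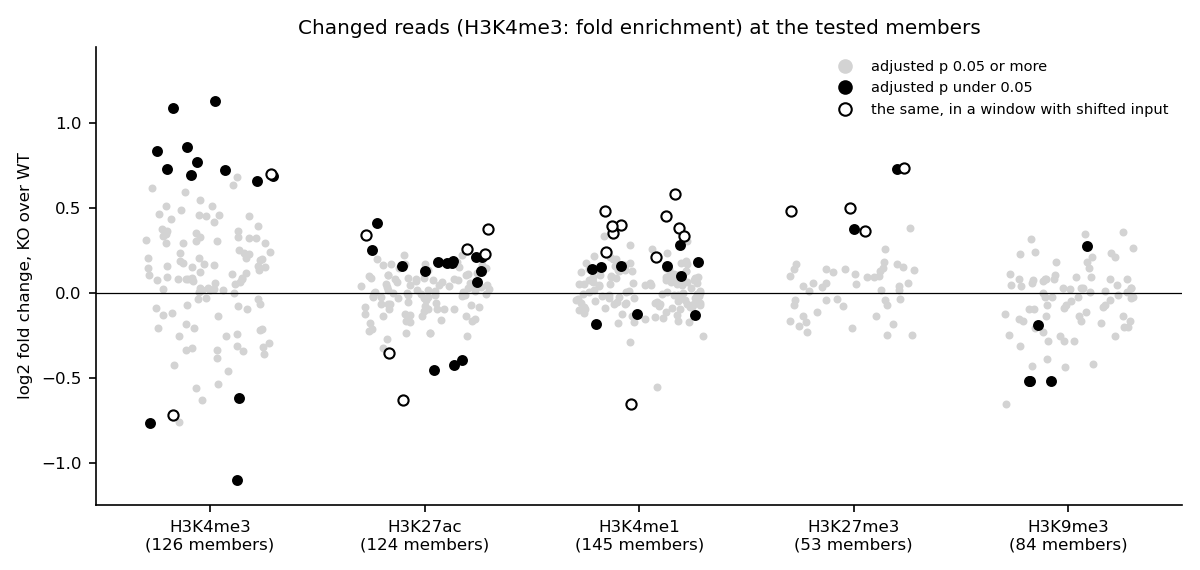
Log2 fold change of KO over WT (y axis) of each gene tested, for the 5 marks (x axis). Grey points are genes that did not pass an adjusted p of 0.05, whether or not their input was shifted. Genes that passed are open points in windows with shifted input and black points elsewhere. The values run from -1.10 (Zfp513) to 1.13 (Zfp526) for H3K4me3, and the extreme H3K4me1 values, -0.66 (Zfp839) and 0.58 (Zfp964), are open points.

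For H3K4me3 and H3K4me1 the covered sequence of the promoters differed between the genotypes more than the share of promoters called. Promoter H3K4me3 was called at 67.3%, 64.4% and 65.3% of the genes in WT and 65.3%, 68.8% and 68.8% in KO, and covered 644 ± 27.8 bp (SD, n = 3) and 714 ± 32.0 bp per gene, against 629 and 659 bp over all genes, with each KO library above each WT library in the former. H3K27ac was called at 63.4% of promoters in each WT library and at 63.9%, 60.9% and 62.4% in KO, and H3K4me1 at 70.3% ± 0.990 and 70.6% ± 0.756. Promoter H3K4me1 covered 1116 ± 27.1 bp in WT and 1016 ± 8.24 bp in KO, a shortening of the same size as over all genes (1164 and 1063 bp). H3K4me1 at the 3′ end was called at 39.6%, 38.1% and 37.6% of the genes in WT and 42.1%, 40.6% and 40.6% in KO, where all genes were at 55.8% and 55.6%. Without the genes in windows with shifted input the 3′ end means were 39.6% ± 1.12 and 41.6% ± 1.24, and the ranges met. Promoter H3K27me3 was called at 19.3%, 21.3% and 20.3% in WT and 21.3%, 20.3% and 21.3% in KO, with all genes at 37.0% in both.

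Along the largest clusters the marks were uneven. In the 13 genes of the largest chromosome 17 cluster, promoter H3K4me3 was called at 4, 4 and 3 genes in WT and 4, 7 and 7 in KO, with mean covered bp of 138 and 229, and H3K9me3 at the 3′ end of 8, 5 and 5 genes in WT and 5 in each KO library. All 10 genes of the cluster at chr4:146971976-147848366 have a KRAB pattern and a low median promoter uniqueness of 35.5%, and there H3K9me3 was called at 9 genes in each WT and 8, 8 and 9 in the KO libraries, with H3K4me3 at 1 gene in each. In the 8 genes at chr7:127233061-127615797, which include Zfp553 and Zfp629 and have a median promoter uniqueness of 98.9%, H3K4me3 was called at 7 or 8 genes and H3K27me3 at 3 in every library. The 7 genes at chr17:32765496-33394641, all with a KRAB pattern and including Zfp870, had H3K4me3 in every library, and H3K9me3 covered 760 bp per 3′ end in WT and 508 bp in KO. The smaller cluster of Zfp809 on chromosome 9, of 5 genes, had H3K9me3 at the 3′ end of 4 genes in each WT library and of 4, 2 and 2 in KO. In other clusters the covered sequence barely moved, with 1961 and 1942 bp per 3′ end (WT and KO) in the 10 genes of chromosome 4 above and 1921 and 1894 bp in the 5 genes at chr4:145510759-146198755. It was 1147 and 1163 bp in the 5 genes at chr8:69610857-69791178, which lie in windows with shifted input. As given above, over all 202 genes the direction of this difference turned when the lists held the same number of calls.

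Of the 5 genes with most H3K9me3, 4 were genes with a KRAB pattern on chromosomes 7 and 13. Zfp808 had H3K9me3 over 77.4% of its gene and upstream 1000 bp, 82996 bp on average over the 6 libraries, followed by Zfp936 (71281 bp, 90.4%), the overlapping genes Zfp935 and Zfp934, which share calls, and Zfp697. Zfp697, the longest of the 202 genes and without a KRAB pattern, was covered by 57212, 53412 and 51412 bp in WT and by 42012, 43800 and 48812 bp in KO. H3K27me3 was longest at Zfp536, a regulator of neuronal differentiation, with 167041, 206441 and 202041 bp in WT and 177041, 173041 and 163241 bp in KO, which overlap. It was next longest at Zfp800, Zfp831, Zfp618 and Zfp521, the last a regulator of neural and osteoblast fate. Zfp503, Zfp648, Zfp703 and Zfp853 were covered by H3K27me3 from end to end in all 6 libraries.

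Genes with known roles fell into groups. The developmental regulators Zfp503 (a repressor in striatal development), Zfp703 (its relative), Zfp516 (brown fat), Zfp521 and Zfp536 had promoter H3K27me3 in all 6 libraries, and so did Zfp638, which takes part in silencing unintegrated retroviral DNA. The RefSeq start of Zfp638 lies 47244 bp from this window's start, and that of Zfp536 3889 bp. Their promoter calls therefore do not stand for the RefSeq promoters. The Zfp638 window had H3K4me3 in 6 and H3K27ac in 0 libraries. The genes with general functions, Zfp598 (a ubiquitin ligase at collided ribosomes), Zfp622 (maturation of the large ribosomal subunit) and Zfp706 (exit from self-renewal), had promoter H3K4me3 in all 6 and no H3K27me3. Zfp750, a regulator of epidermal differentiation, had H3K27ac and H3K4me1 in all 6, H3K4me3 in 2 and no H3K27me3. Among KRAB genes, Zfp568, which represses a placental Igf2 transcript, had H3K4me3 in 6 libraries and H3K9me3 in the body in 6 and at the 3′ end in 0. Zfp809 had H3K4me3 in 6, with H3K9me3 at the promoter in 5, in the body in 6 and at the 3′ end in 4. Zfp932 had no call but H3K9me3, in the body and 3′ end in 6 libraries and at the promoter in 2.

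The machinery that KRAB proteins use was read from a list of 18 genes, which include Trim28, Setdb1, Atf7ip, the HP1 genes Cbx1, Cbx3 and Cbx5, and subunits of the HUSH complex. Promoter H3K4me3 was called in all 6 libraries at 14 of the 18, H3K27ac at 16, H3K27me3 at 1 and H3K9me3 at 0. Trim28, Atf7ip, Setdb1 and Zfp57 were not among the 14. H3K4me3 was called at Trim28 and Atf7ip in 0 libraries, at Setdb1 in 2 WT and 0 KO, and at Zfp57 in 0 WT and 1 KO. The window lies at the outermost annotated start, so an internal start of these genes can lie outside it. Of 14 tested for H3K4me3, Smarcad1, a chromatin remodeller that binds Trim28, rose by a log2 fold change of 0.92 ± 0.21 (limma adjusted p = 0.0045), and Morc3, an ATPase of H3K9me3 silencing, fell by 0.64 (adjusted p = 0.0257). The covered length of the Morc3 promoter went the other way, with 890, 911 and 912 bp in WT and 1393, 1350 and 1259 bp in KO. Of 6 tested for H3K9me3, the region of Pphln1, a HUSH subunit, was higher in KO by 0.79 ± 0.10 (edgeR adjusted p = 0.00457). These are 1 of 14 in each direction for H3K4me3, where 12.2% of all genes tested were higher and 6.37% lower, and 1 of 6 for H3K9me3, where 0.243% were higher. For H3K27ac 2 of 18 were higher (18.5% of all genes tested), Smarcad1 by 0.12 and Zfp57, an imprinting regulator, by 0.13, and Pphln1 was lower by -0.34 ± 0.08 (edgeR adjusted p = 0.0192, background 3.64%). For H3K4me1 Chaf1a, a subunit of the chromatin assembly factor CAF-1, was higher by 0.12 and Atf7ip lower by -0.13 of 18 tested (9.59% and 3.23% of all genes tested). The 1 gene tested for H3K27me3 did not pass.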

How the data were processed

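ChIP-seq lists of 30 libraries (3 WT and 3 KO for each of 5 marks) were analysed. The 8 inputs entered through the input reads that the deposited lists count. Per the study's methods and the labels, the authors trimmed 50-base reads (Trim Galore 0.6.6), aligned them to GRCm38 (Bowtie2 2.4.4), removed multimapping and low-quality reads, marked duplicates and called each library against its input. The methods do not discuss H3K9me3, and H3K27ac and H3K4me1 carry 1 antibody name in the labels. For H3K4me3 the authors deposited MACS2 2.2.7.1 peaks with a score, a fold enrichment over input (a ratio) and −log10 p- and q-values. For the other marks the authors deposited epic2 lists (0.0.52) with the count of ChIP and of input reads per region, a p-value, an FDR, a score and a log2 fold change over input.

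Gene starts are the outermost annotated starts, so an internal start can lie outside the promoter window. Calls with 1 bp of overlap counted. H3K4me3 levels were tested with limma 3.58.1 on log2 fold enrichment (pseudocount 0). ChIP reads per merged region called in all 6 libraries were tested with edgeR 4.0.16 (quasi-likelihood, TMM, covered length as offset), with Benjamini-Hochberg adjustment over all features, on scripts first checked with simulated data. SE was derived from F and the fold change. Reads per kb are raw reads over covered length. Input shifts were read from the input counts of the H3K4me1 lists in 1 Mb windows and used for all marks, though the inputs of other marks can differ. Genes in windows without such a count were taken as not shifted. Unique 50-base words were counted on both strands of GRCm38.p6. RefSeq promoters and GENCODE vM21 genes gave sequences and windows. Intervals were handled in Python 3.11.15 with numpy 2.4.6, pandas 2.3.3 and numba 0.67.0, plots in matplotlib 3.10.9, and DESeq2 1.42.0 was an alternative.

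Named genes were those called in one genotype only, up to 4 per direction and mark with the largest change at an adjusted p under 0.05, the 5 with most H3K9me3 and the 5 with most H3K27me3, and those of known roles. Other genes were named after their values were seen, to complete counts or clusters. The genes and lists were chosen with earlier results of these data known. Alternatives were other windows, overlaps, thresholds, cluster distances, scalings and left-out libraries. The setting without genes in windows of shifted input was chosen after seeing the data.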

Additional observations from a re-analysis of the deposited data

How the results depend on the processing

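Each summary value was set beside its value under every alternative, and 267 of these pairs stayed close and 65 moved. Of 32 single-gene calls, each under 10 or 11 alternatives, 18 were kept under all of them, 14 were lost under at least 1, and none changed direction. The clustered share minus the isolated share (mean of 6 libraries, percentage points) moved most. In windows with at least 90% unique words it was 9.89 for H3K4me3 (from -13.0), 6.64 for H3K27ac (from -15.9), 4.16 for H3K4me1 (from -18.8), -14.0 for H3K27me3 (from -19) and 17.2 for H3K9me3 at the 3′ end (from 26.4). With a cluster distance of 100 kb it was -4.09, -9.17 and -9.58 for H3K4me3, H3K27ac and H3K4me1 and 19.2 for H3K9me3, and with 500 kb -19.2, -23.4 and -28.1 for the first 3. With neighbours counted among the 202 genes only it was -12.4 for H3K27ac and -23.2 for H3K27me3. Without shifted input it was -20.8 for H3K4me1 and 29.5 for H3K9me3, with promoters of 5000 bp upstream to 100 bp downstream -14.2 for H3K27ac and -17.1 for H3K4me1, and with the same number of calls 22.1 for H3K9me3.

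KO minus WT covered bp per gene went from -12.9 to 32.8 for H3K27ac with the 5000 bp promoter, and from -100.3 for H3K4me1 to -70.9 with 500 bp on either side, -49.5 with the 5000 bp promoter and -142 in unique windows. At the 3′ end H3K9me3 went from -125 to 20.8 with the same number of calls, -35.8 in the last 1000 bp and -64.8 in the coding part of the last coding exon, and its share from -4.13 to 0.825 with the same number of calls. The H3K4me1 promoter share went from 0.33 to -2.64 with 500 bp.

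Counts of genes called in 1 genotype only were 1 for H3K4me3 in unique windows. For H3K27ac they were 1 at an FDR of 0.01, 1 with the same number of calls and 0 without shifted input, for H3K4me1 3 with 500 bp and 2 with the 5000 bp promoter, and for H3K27me3 0 with the 5000 bp promoter and 0 with an overlap of 200 bp. For H3K9me3 they were 2 at an FDR of 0.01, 5 with the same number of calls and 3 in the last 1000 bp. Leaving out 1 library gave 2 to 4, 2 to 5, 0 to 2, 1 to 2 and 1 to 3 in the order H3K4me3, H3K27ac, H3K4me1, H3K27me3 and H3K9me3.

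Counts of changed genes ranged from 7 to 13 for H3K4me3 and from 0 to 4 for H3K9me3 when 1 library was left out. In regions of like length without the offset, where fewer genes are tested, they were 13 for H3K27ac, 39 for H3K4me1 and 2 for H3K27me3, and without shifted input 10 for H3K4me1 and 2 for H3K27me3. With the replicate number as a block the counts were 19, 18, 21, 6 and 5 for H3K4me3, H3K27ac, H3K4me1, H3K27me3 and H3K9me3. The deviations of libraries with the same number had correlations of -0.0187 to 0.0267. For H3K9me3, reads per kb over all calls were highest in replicate 1 of both genotypes, at 59.2 in WT and 62.1 in KO. The other H3K9me3 libraries were at 49.6 to 51.0. Whether the numbers pair the samples through such differences of whole libraries was not tested. The cause of the shifts between settings was not tested. H3K4me3 lists hold no depth, and levels could be compared only where all 6 libraries had a call, which leaves out genes that lost or gained one.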
